A study of Trichoderma reesei with 17 samples.

Results

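A set of 6 genes for a β-mannanase, galactosidases and GH31 enzymes was followed in Trichoderma reesei, taken by protein ID from the 9129 genes counted. They are 56996, the GH5 β-mannanase MAN1; 55999 and 72632, GH27 α-galactosidases, of which 72632 is AGL1; 80240, the GH35 β-galactosidase BGA1; and 69944 and 82235 of family GH31, described as an α-xylosidase/α-glucosidase and an α-glucosidase. All 6 of 6 passed the filter on low counts. GH stands for glycoside hydrolase, and the number after it for the sequence family. No sequence of these genes is shown, since none was held by the tables used here.

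Mannans and galactomannans are plant hemicelluloses built on a chain of mannose units. A β-mannanase cuts the chain, a β-mannosidase releases mannose from the short pieces, and α-galactosidases take off the galactose that hangs from it. β-Galactosidases release galactose in the other linkage, as found in lactose and in side chains of xyloglucan, and an α-xylosidase removes xylose from xyloglucan fragments. XYR1 is the Zn2Cys6 transcription factor that activates cellulase and hemicellulase genes of this fungus.

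RNA-seq of mycelia gave 17 libraries in 6 groups, the parental strain QM9414 and the deletion mutant Δxyr1, each on cellulose, sophorose or glucose as the carbon source, at 28°C and 200 rpm. Each group had 3 libraries, except QM9414 in glucose with replicates 1 and 3 (its replicate 2 was not analysed here). Cellulose was given at 1%, glucose at 2% and sophorose, a disaccharide of glucose that induces cellulases, at 1 mM. RNA was pooled over 24, 48 and 72 h for QM9414 in cellulose but over 8 and 24 h for Δxyr1 in cellulose, and in both strains the sophorose pools covered 2, 4 and 6 h and the glucose pools 24 and 48 h. Δxyr1 was also grown on glycerol for 24 h beforehand, which one source states for its cellulose and another for its sophorose cultures. Strain and culture time therefore cannot be told apart in cellulose, and neither can carbon source and culture time, here and in every result below. Strain and the glycerol growth likewise cannot be told apart in cellulose or in sophorose, whichever of these it preceded.

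Counts per library added up to between 7014100 and 29056712, with a median of 14468110. Levels are in CPM, reads of a gene per 1e+06 reads of the TMM-corrected library total. The deleted gene xyr1 (122208) had between 534 and 677 CPM in QM9414 cellulose and between 8.39 and 14.7 CPM in Δxyr1 cellulose, between 2252 and 2883 CPM against 81.5 to 93.7 CPM in sophorose, and 9.21 to 10.01 CPM against 1.01 to 5.68 CPM in glucose, so reads on it were fewer but not at 0 in the mutant. QM9414 cellulose replicate 1 differed from its group on a set of glucose-high genes. For 18 genes high in every glucose library and low in the other QM9414 cellulose libraries, it held a median of 10.99% of the QM9414 glucose level, against 0.359% for the higher of the other replicates. The genes were picked as low in those other replicates, so their low value was set by the choice and the contrast is no test. In Δxyr1 sophorose replicate 3 the 2 highest genes took 44.98% of the counts, against 2.80 to 33.3% in the other libraries. Results for the 6 genes that change without these libraries are named where they occur. For other single genes, values without these libraries are not given.

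Every gene of the group was lower in Δxyr1 than in QM9414 in cellulose. A call required an adjusted p no higher than 0.05 (edgeR's quasi-likelihood test, Benjamini-Hochberg over 8506 genes tested) together with a log2 change of 1 or more in either direction. By this rule 6 of 6 were lower in cellulose, beside 10.3% of all genes tested, and 4 of 6 in sophorose, beside 6.47% of all genes. In glucose 0 of 6 were called, beside 2.60% of all genes, while 1 of the 5 with reads there had an unadjusted p under 0.05, and DESeq2 also called 0. The median log2 fold change of the 6 was -3.34 in cellulose and -3.43 in sophorose, against -0.02 and 0.03 for all genes tested. The cellulose median is the same with 69944 at its bound. The members were chosen with earlier results of these data known, so such counts and medians, here and below, are no test of the group. The cellulose count stayed at 6 when each library was left out in turn, QM9414 cellulose replicate 1 included.

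**Figure D1:**
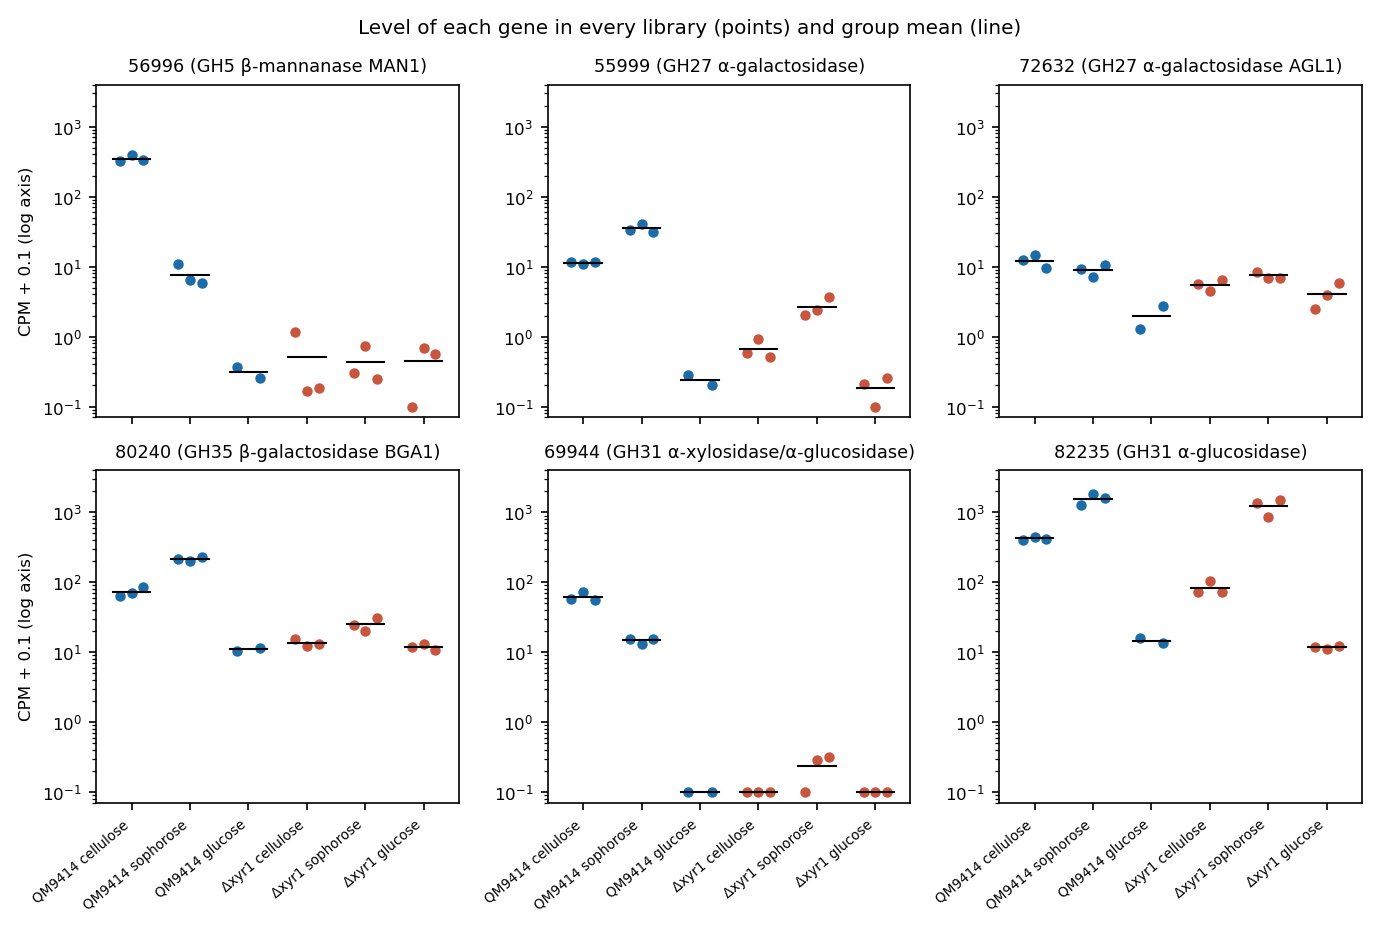
Level of each of the 6 genes in every library, as CPM with 0.1 added on a log axis, for QM9414 (blue) and Δxyr1 (red) in cellulose, sophorose and glucose. Points are libraries and the line is the group mean; 82235 is higher in every Δxyr1 sophorose library (855 to 1498 CPM) than in the QM9414 cellulose libraries (405 to 449 CPM), while 69944 had no reads in Δxyr1 cellulose.

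The β-mannanase gene 56996, symbol man5a in RefSeq, was a cellulose gene in the parental strain. Its level was 318, 389 and 336 CPM in the QM9414 cellulose libraries. On sophorose it was 10.7, 6.32 and 5.69 CPM, and on glucose 0.271 and 0.157 CPM. The mutant had 1.07, 0.0687 and 0.0815 CPM in cellulose, 0.207, 0.642 and 0.144 CPM in sophorose, and 0, 0.582 and 0.461 CPM in glucose. No Δxyr1 library exceeded 10 reads of this gene, and the strains did not overlap in cellulose or in sophorose.

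In cellulose the mannanase gene fell 1056-fold in the mutant (log2 fold change -10.04, SE 0.61, adjusted p = 6.03e-09 by edgeR). This rested on 11 reads in Δxyr1 against 17310 in QM9414, so the count ratio was 1102 (95% counting interval 616 to 2207). Of the 11 reads, 9 came from Δxyr1 cellulose replicate 1, and without that library the log2 fold change was -12.03, while without replicate 2 it was -9.43. In sophorose it fell 21.6-fold (log2 -4.43, SE 0.59, adjusted p = 4.07e-05), and by -5.35 without Δxyr1 sophorose replicate 2, which held 10 of the 15 reads. The strain effects in cellulose and sophorose differed from each other by -5.61 on the log2 scale (SE 1.16, adjusted p = 0.00126). Without Δxyr1 cellulose replicate 1 this difference was -7.60, without Δxyr1 cellulose replicate 2 it was -5.00, and without Δxyr1 sophorose replicate 2 it was -4.70, called in each case. In glucose 12 reads stood against 6, for a count ratio of 1.43 (interval 0.498 to 4.65).

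Within QM9414, 56996 was 1665-fold higher in cellulose than in glucose (log2 10.70, adjusted p = 1.51e-08) and sophorose exceeded glucose 36.0-fold (log2 5.17, adjusted p = 2.79e-05). The glucose side held 6 reads, and the count ratios were 1727 (interval 793 to 4705) and 36.8 (interval 16.7 to 101). Sophorose stood 46.3-fold below cellulose (log2 -5.53, SE 0.44, adjusted p = 2.08e-07). In Δxyr1 no carbon source moved it past the threshold, with 11, 15 and 12 reads over the cellulose, sophorose and glucose libraries. Cellulose against glucose in the mutant had a count ratio of 1.09 with an interval from 0.438 to 2.71, so a rise of the size seen in QM9414 lies far outside it.

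The GH27 α-galactosidase gene 55999 was highest on sophorose. QM9414 held 33.4, 40.5 and 31.5 CPM in sophorose, 11.5, 10.7 and 11.7 CPM in cellulose, and 0.181 and 0.105 CPM in glucose. Δxyr1 held 1.93, 2.31 and 3.53 CPM in sophorose, 0.474, 0.824 and 0.407 CPM in cellulose, and 0.107, 0 and 0.154 CPM in glucose. The order sophorose, cellulose, glucose was thus the same in both strains, with no overlap between neighbouring carbon sources in either, at lower levels in the mutant on the first 2.

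This gene fell 18.9-fold in the mutant in cellulose (log2 -4.24, SE 0.30, adjusted p = 3.08e-08) and 13.6-fold in sophorose (log2 -3.76, SE 0.24, adjusted p = 2.39e-08). The 2 strain effects differed by -0.48 (SE 0.39, adjusted p = 0.339), which did not pass. In QM9414 it rose 79.8-fold from glucose to cellulose and 248-fold from glucose to sophorose, with adjusted p = 1.03e-08 and 6.21e-10 by edgeR. It still rose in Δxyr1, 5.79-fold in cellulose (adjusted p = 0.00121) and 25.1-fold in sophorose (adjusted p = 2.57e-07) over glucose. The cellulose call has a limit: with only the Δxyr1 cellulose and glucose libraries the gene did not pass the filter, which it met through other groups. The glucose side held 4 reads in each strain, so the mutant ratio for cellulose, 6.27 by counts, carries an interval from 2.12 to 25.1, and that for sophorose, 27.0, one from 10.3 to 101. The QM9414 count ratios were 85.6 for cellulose (interval 33.2 to 315) and 265 for sophorose (interval 103 to 974).

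Its relative 72632 (AGL1) had the smallest fitted strain effects of the 6 in cellulose and in sophorose. QM9414 held 12.1, 14.4 and 9.59 CPM in cellulose, 9.19, 7.03 and 10.5 CPM in sophorose, and 1.17 and 2.62 CPM in glucose. Δxyr1 held 5.57, 4.40 and 6.36 CPM in cellulose, 8.40, 6.87 and 6.84 CPM in sophorose, and 2.40, 3.88 and 5.76 CPM in glucose. Only the cellulose libraries separated the strains, and the mutant values of all 3 carbon sources lay between 2.40 and 8.40 CPM.

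In cellulose 72632 fell 2.21-fold (log2 -1.15, SE 0.29, adjusted p = 0.00584), and the value was -0.96, short of the threshold, without scaling factors. In sophorose the difference was -0.27 with a 95% interval from -0.88 to 0.34 (adjusted p = 0.455). In glucose it was 0.99, with an interval from 0.18 to 1.80 (adjusted p = 0.129), and leaving out Δxyr1 glucose replicate 1 brought it to 1.32 and past the threshold. In QM9414 the gene rose 6.02-fold in cellulose and 4.46-fold in sophorose over glucose, with adjusted p = 2.78e-05 and 0.000119, and 10.1-fold and 7.79-fold without QM9414 glucose replicate 3. In Δxyr1 the change over glucose was 0.45 in cellulose (interval -0.21 to 1.12; 1.24 without scaling factors) and 0.90 in sophorose (interval 0.25 to 1.54, adjusted p = 0.0181), neither of which reached a log2 of 1 with TMM factors, the latter reaching 1.23 without scaling factors and 1.27 without Δxyr1 glucose replicate 3.

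The β-galactosidase gene 80240 (BGA1) lay between 10.5 and 12.9 CPM on glucose in both strains. It had 10.5 and 11.5 CPM in QM9414 glucose, 11.6, 12.9 and 10.5 CPM in Δxyr1 glucose, and 15.3, 12.1 and 13.1 CPM in Δxyr1 cellulose. QM9414 reached 63.4, 70.7 and 86.1 CPM in cellulose and 218, 199 and 229 CPM in sophorose. Δxyr1 in sophorose held 24.2, 19.9 and 30.8 CPM, above its own glucose libraries and below every QM9414 library of cellulose or sophorose.

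The strain effect on 80240 was -2.45 in cellulose (5.46-fold lower, SE 0.17, adjusted p = 2.55e-08) and -3.11 in sophorose (8.62-fold lower, SE 0.17, adjusted p = 5.10e-09). It was the only one of the 6 with a larger fitted fall in sophorose. The difference between the 2 effects was 0.66 with an interval from 0.18 to 1.14 (adjusted p = 0.0276), below a log2 of 1, and rose to 1.31 without scaling factors. In glucose the strain effect was 0.08 with an interval from -0.32 to 0.48. QM9414 rose 6.65-fold in cellulose and 19.5-fold in sophorose over glucose, with adjusted p = 2.21e-08 and 3.73e-10. In Δxyr1 the change in cellulose was 0.21 (interval -0.15 to 0.57), or 1.04 without scaling factors, while in sophorose the gene rose 2.14-fold (log2 1.10, adjusted p = 3.16e-05), and 0.92 on the log2 scale without Δxyr1 sophorose replicate 3, short of the threshold.

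Of the GH31 genes, 69944 was read almost only in QM9414 on cellulose or sophorose. QM9414 cellulose libraries held 1178, 1014 and 907 reads, or 58.5, 72.5 and 55.8 CPM. QM9414 sophorose libraries held 198, 206 and 254 reads, or 15.6, 13.2 and 15.2 CPM. There were 0 reads in every library of QM9414 glucose, Δxyr1 cellulose and Δxyr1 glucose, and 0, 3 and 3 reads in Δxyr1 sophorose.

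In cellulose the gene was therefore at least 723-fold lower in Δxyr1, taking 3 reads over the group as the floor (adjusted p = 2.46e-08 by edgeR). In sophorose it fell 101-fold (log2 -6.66, SE 0.37, adjusted p = 6.28e-07), from 658 reads to 6, a count ratio of 107 with an interval from 48.9 to 293. QM9414 was at least 618-fold higher in cellulose and at least 147-fold higher in sophorose than in glucose, and 4.25-fold lower in sophorose than in cellulose (log2 -2.09, SE 0.22, adjusted p = 3.55e-05). The 6 reads of Δxyr1 sophorose were called against the glucose and the cellulose libraries of the mutant (adjusted p = 0.0228 and 0.0345 by edgeR), though the libraries overlapped. By the floor they were at least 1.91-fold and 1.603-fold higher, which is below a log2 of 1. The fitted log2 of 4.075 behind both calls depends on the prior count. The gene passed the filter only through QM9414 libraries, so these calls are not read as a rise in Δxyr1. The call against glucose was lost without Δxyr1 sophorose replicate 2 or 3 or Δxyr1 glucose replicate 1, and that against cellulose without Δxyr1 sophorose replicate 2 or 3 or any Δxyr1 cellulose replicate, without scaling factors, or with a replicate block. In glucose neither strain had a read, so no fold is given.

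The other GH31 gene, 82235, was the member most abundant on sophorose, and was so in both strains. QM9414 held 1283, 1798 and 1584 CPM in sophorose, and Δxyr1 held 1381, 855 and 1498 CPM. In cellulose QM9414 held 405, 449 and 416 CPM and Δxyr1 73.5, 105 and 72.6 CPM. Glucose libraries held 16.0 and 13.3 CPM in QM9414 and 11.99, 11.2 and 12.1 CPM in Δxyr1. The strains overlapped in sophorose and were far apart in cellulose.

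In glucose the strains did not overlap, but the strain effect of -0.31 (interval -0.84 to 0.21) had an adjusted p of 0.472. In cellulose 82235 fell 5.05-fold in the mutant (log2 -2.34, SE 0.22, adjusted p = 7.88e-07). In sophorose the strain effect was -0.32 with an interval from -0.77 to 0.13 (adjusted p = 0.227), which leaves room for a fall of up to 0.77 on the log2 scale. The strain effect in cellulose was more negative than that in sophorose by -2.02 (interval -2.66 to -1.37, adjusted p = 9.44e-05). Over glucose the gene rose 106-fold in sophorose in QM9414 (log2 6.73, SE 0.33) and also in Δxyr1 (log2 6.73, SE 0.27), with adjusted p = 3.23e-10 and 2.31e-11, and the difference of these rises was -0.01 with an interval from -0.72 to 0.71. From glucose to cellulose it rose 29.0-fold in QM9414 and 7.13-fold in Δxyr1 (adjusted p = 4.02e-09 and 3.09e-08), and the strain effect in cellulose differed from that in glucose by -2.02 (adjusted p = 0.000378).

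**Figure D2:**
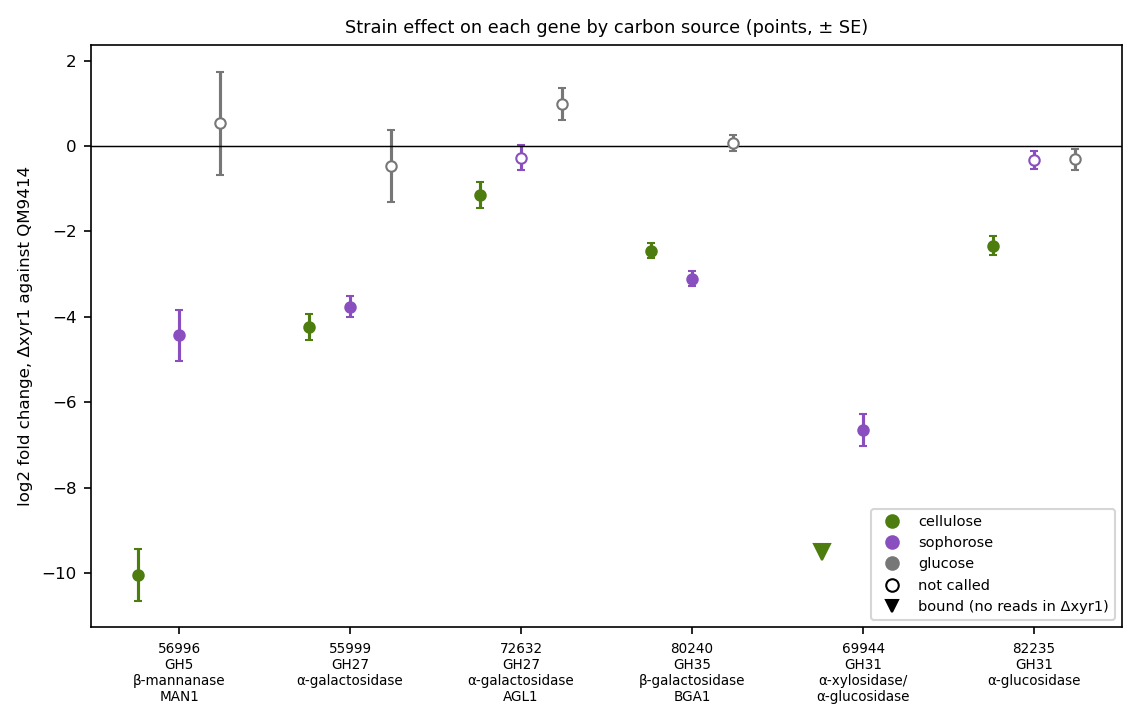
Fitted log2 fold change of Δxyr1 against QM9414 for each gene in cellulose (green), sophorose (purple) and glucose (grey), with the SE as bars, open points not called, and a triangle for the bound of 69944 in cellulose, which had no reads in the mutant. In cellulose the fitted points run from -1.15 for 72632 to -10.04 for 56996, whereas 72632 and 82235 lie near 0 in sophorose. The triangle of 69944 only bounds its fall, which may be larger than that of 56996.

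Counted over the group, more genes were called over glucose in QM9414 than in Δxyr1, a comparison of counts that is itself no test. In QM9414, 6 of 6 genes were higher in cellulose than in glucose, beside 19.2% of all genes tested, and 6 of 6 were higher in sophorose than in glucose, beside 19.6%. In Δxyr1, 2 of 6 were called higher in cellulose than in glucose (55999 and 82235), beside 23.0% of all genes. For sophorose over glucose 4 of 6 were called (55999, 80240, 69944 and 82235), beside 19.4%. The Δxyr1 sophorose calls of 69944 and 80240 were each lost without certain single libraries, as given above. That of 69944 also rested on a fitted fold that depends on the prior count, with a bound below the fold threshold. The comparisons within a strain share its glucose libraries.

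Sophorose and cellulose split the group in QM9414. The galactosidase genes 55999 (3.10-fold) and 80240 (2.93-fold) and the α-glucosidase gene 82235 (3.67-fold) were higher in sophorose than in cellulose, 3 of 6 beside 7.17% of all genes, with adjusted p between 2.22e-06 and 2.13e-05 by edgeR. The β-mannanase gene 56996 and the α-xylosidase/α-glucosidase gene 69944 were lower in sophorose, 2 of 6 beside 10.2% of all genes. For 72632 the difference was -0.43 with an interval from -1.03 to 0.17. In Δxyr1, 3 of 6 were called higher in sophorose than in cellulose, beside 13.5% of all genes. Of these, 55999 rose 4.33-fold and 82235 14.9-fold (adjusted p = 7.35e-05 and 6.07e-09 by edgeR). The other, 69944, was called on the 6 reads described above, with a bound below the fold threshold. A replicate block ended that call (2 of 6). The β-galactosidase gene 80240 differed by 0.89 (interval 0.54 to 1.24, adjusted p = 0.000335), below the fold threshold, which it passed at 1.03 without Δxyr1 sophorose replicate 2.

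**Figure D3:**
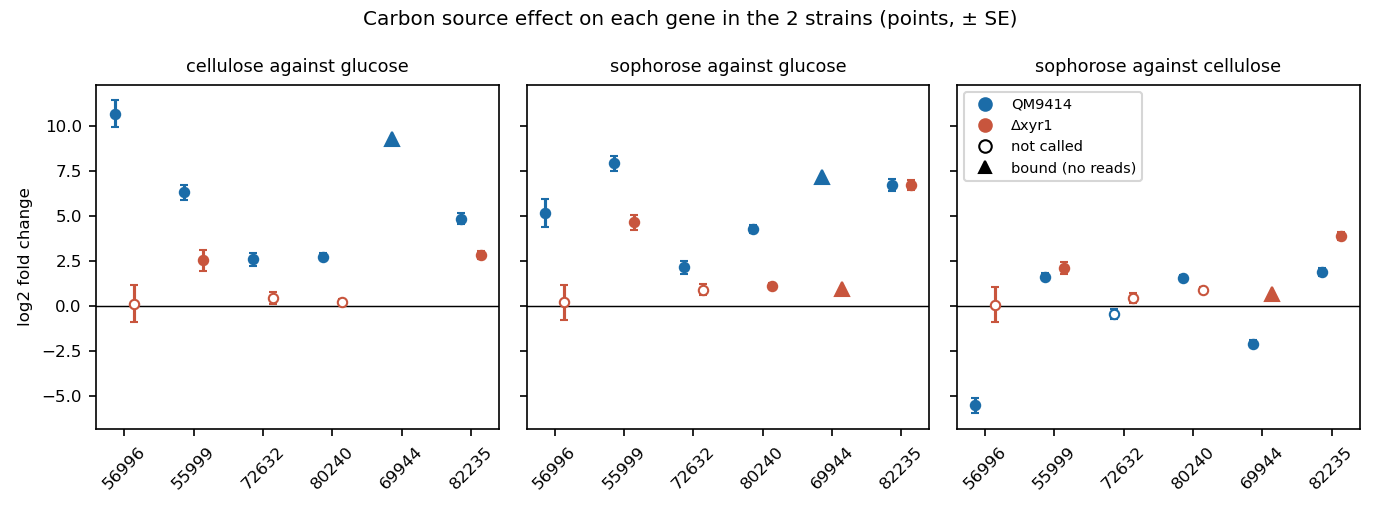
Fitted log2 fold change between carbon sources for each gene in QM9414 (blue) and Δxyr1 (red), with the SE as bars, open points not called, and triangles for bounds where the lower group had no reads. For 82235 the rise from glucose to sophorose is 6.73 in both strains, while 56996 rises by 10.70 from glucose to cellulose in QM9414 and does not pass the test in Δxyr1.

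The tests of the strain effect between carbon sources gave 3 of 6 genes for cellulose against sophorose (56996, 69944 and 82235), beside 16.8% of all genes tested with a more negative effect in cellulose. For cellulose against glucose 5 genes were called, beside 11.3% of all genes in that direction, and 69944 had no value there, as both glucose groups were at 0. For sophorose against glucose 3 genes were called (56996, 55999 and 80240), beside 5.48% of all genes in that direction. The 55999 term for cellulose against glucose, -3.78, lost its call without QM9414 glucose replicate 3 (-3.34), Δxyr1 glucose replicate 1 (-3.63) or Δxyr1 glucose replicate 3 (-3.36). The 72632 term for cellulose against glucose, -2.14, lost its call without scaling factors (-1.44). The sophorose against glucose terms of 56996 and 55999 rested on glucose groups of 4 to 12 reads. That of 56996, -4.96, lost its call when either QM9414 glucose library or Δxyr1 glucose replicate 2 or 3 was left out (-5.30 to -4.39). It moved to -5.88 without Δxyr1 sophorose replicate 2 and to -5.79 without Δxyr1 glucose replicate 1, both still called. That of 55999, -3.30, lost it without either QM9414 glucose library, Δxyr1 glucose replicate 1 or 3 or Δxyr1 sophorose replicate 2 (-3.63 to -2.88), and also without scaling factors (-3.27) and with only the groups compared (-3.29). The 72632 term for sophorose against glucose, -1.26 (adjusted p = 0.0774 by edgeR), was called by DESeq2 (-1.33), and by edgeR without QM9414 glucose replicate 3 (-2.05) or Δxyr1 glucose replicate 1 (-1.58).

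Levels were compared between genes per kilobase of gene span, with spans of 1236 bases for 56996, 2137 for 55999, 2001 for 72632, 3523 for 80240, 2430 for 69944 and 3126 for 82235. In QM9414 cellulose the mannanase gene led with 281 ± 29.99 CPM per kilobase (SD, n = 3), followed by 82235 with 135 ± 7.43. The genes 69944 (25.6 ± 3.68) and 80240 (20.8 ± 3.29) overlapped in their libraries, as did 72632 (6.01 ± 1.19) and 55999 (5.29 ± 0.243). In QM9414 sophorose 82235 led with 497 ± 82.7 CPM per kilobase, 80240 had 61.1 ± 4.41 and 55999 16.4 ± 2.22, while 56996 (6.12 ± 2.20) and 69944 (6.03 ± 0.532) overlapped above 72632 (4.45 ± 0.872).

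As shares of the group, the mannanase gene made up 58.4 to 60.5% of the summed CPM per kilobase of the 6 genes in QM9414 cellulose and 0.764 to 1.70% in QM9414 sophorose. The α-glucosidase gene 82235 made up 80.9 to 86.5% in QM9414 sophorose and 96.2 to 97.3% in Δxyr1 sophorose, where the sum itself was 410 against 592 CPM per kilobase in QM9414. The sum was 475 in QM9414 cellulose, 33.9 in Δxyr1 cellulose, and 8.99 and 9.39 in the glucose groups of QM9414 and Δxyr1. In Δxyr1 the order was 82235, 80240, 72632 in all 3 carbon sources, with 82235 and 80240 overlapping in glucose only.

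Other genes of the same families were listed by the study's family assignments. Of all genes tested, 10.3% were called lower in Δxyr1 in cellulose and 6.47% in sophorose, and 705 and 915 of 8506 were called higher. Of 5 further α-galactosidase genes (GH27 and GH36), edgeR and DESeq2 called 0 lower in the mutant in cellulose or sophorose, with 1 and 3 at an unadjusted p under 0.05, and their median log2 fold change was -0.15 and -0.59. One was higher in cellulose (75015, log2 1.01, adjusted p = 0.00043, 19.7 against 9.76 CPM) and another in sophorose (65986, log2 1.00, adjusted p = 0.00619, 17.8 against 8.89 CPM). The GH36 gene 124016, AGL2, had 81.5 CPM in Δxyr1 and 108 CPM in QM9414 cellulose, a log2 difference of -0.41 that did not reach the threshold. Of 3 further GH31 genes, 1 fell in cellulose, the α-glucosidase gene 60085 (log2 -3.39, SE 0.27, adjusted p = 1.04e-07, 0.594 against 6.30 CPM), and 0 in sophorose, by DESeq2 or at an unadjusted p under 0.05 as well. Like 82235, 60085 had a more negative strain effect in cellulose than in sophorose, by -3.18 (adjusted p = 4.20e-06).

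Family GH2 holds the β-mannosidases that would act after a mannanase. Of its 8 genes, 4 fell in the mutant in cellulose and 1 fell and 1 rose in sophorose. Beside these stand falls of 10.3% and 6.47% of all genes in cellulose and sophorose, and rises of 915 of 8506 in sophorose. The β-mannosidase gene 62166 fell from 287 ± 42.8 to 9.93 CPM in cellulose (log2 -4.86, SE 0.20, adjusted p = 2.30e-10), and its strain effect in sophorose was -0.72, below the threshold. Within QM9414 it was 11.2-fold lower in sophorose than in cellulose (adjusted p = 5.84e-09), as 56996 was. The β-mannosidase gene 5836 fell in both, by -2.58 in cellulose and -1.30 in sophorose (adjusted p = 1.81e-09 and 2.91e-06). The other 3 described as β-mannosidases, 57857, 59689 and 69245, had strain effects of -0.84, 0.94 and 0.33 in cellulose, none called. The remaining calls were 77299, an exo-β-D-glucosaminidase (-2.72 in cellulose, adjusted p = 1.49e-07), and 102909, a GH2 protein of no stated activity, which had -1.67 in cellulose and 1.28 in sophorose (adjusted p = 0.00528 and 0.0188), its libraries overlapping between the strains in sophorose.

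Of the 6 other GH5 genes listed, 5 passed the filter. The gene 82633 fell in cellulose (log2 -2.43) and sophorose (-2.25), with adjusted p = 3.63e-05 and 9.66e-05, and the glucan β-1,3-glucosidase gene 64375 fell in sophorose (-1.01, adjusted p = 0.000157). In QM9414, 3 of these 5 were lower in cellulose than in glucose, the opposite direction to 56996, beside 1160 of 8506 genes tested. By edgeR or DESeq2 0 were called higher (1 at an unadjusted p under 0.05), beside 19.2% of all genes by edgeR.

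Xyloglucan carries the xylose, galactose and fucose that α-xylosidases, β-galactosidases and α-L-fucosidases remove. Of 9 genes listed for xyloglucan and fucose (GH12, GH74 and GH95, of which 25224 is described as a GH65 trehalase), 3 were lower and 1 higher in Δxyr1 in cellulose, and 6 were lower and 1 higher in sophorose. Among all genes tested, 10.3% were lower in cellulose and 6.47% in sophorose, and 705 and 915 of 8506 were higher. The xyloglucanase gene 49081 (CEL74a) fell from 1413 to 18.5 CPM in cellulose (log2 -6.26, adjusted p = 1.26e-08) and from 514 to 25.3 CPM in sophorose (-4.35, adjusted p = 5.77e-07). The GH12 endoglucanase gene 123232 fell by -10.00 in cellulose and -8.25 in sophorose (adjusted p = 1.28e-07 and 1.10e-06), and the other GH12 gene, 77284, rose by 1.14 in sophorose (adjusted p = 0.000153). Among the GH95 genes, 111138 fell in both (-1.22 and -1.26, adjusted p = 4.87e-05 and 4.26e-05), and 58802 (-1.19) and 72488 (-1.02) fell in sophorose with adjusted p = 1.23e-05 and 0.00186. The α-L-fucosidase gene 5807 rose in cellulose (2.80, adjusted p = 1.26e-08) and fell in sophorose (-1.86, adjusted p = 4.90e-06).

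**Figure D4:**
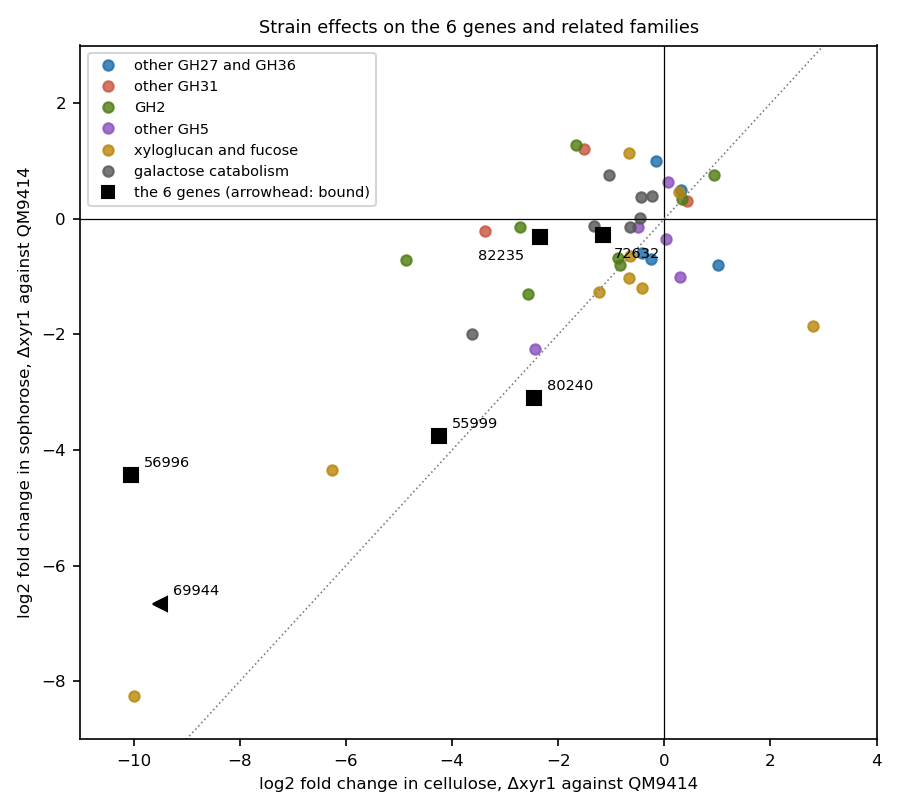
Fitted log2 fold change of Δxyr1 against QM9414 in cellulose (x axis) and in sophorose (y axis) for the 6 genes (black, arrowhead for the bound of 69944) and for related families and galactose catabolism genes (colours); the dotted line marks equal effects. Of the 6, all but 80240 lie left of the line, and 80240 (-2.45, -3.11) lies right of it.

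Galactose set free by these enzymes is broken down by galactokinase and the Leloir pathway, or by reductases and dehydrogenases that also serve xylose and arabinose. Of 7 such genes, 3 were lower in the mutant in cellulose and 1 in sophorose, beside 10.3% and 6.47% of all genes. Their medians were -0.64 and 0.02. The xylose reductase gene xyl1 (107776) fell in both, from 177 to 14.3 CPM in cellulose (log2 -3.63, adjusted p = 4.92e-08) and from 252 to 63.4 CPM in sophorose (-1.99, adjusted p = 1.96e-05). The gene gal7 (111074), of the Leloir pathway, fell in cellulose (-1.04, adjusted p = 0.000185) and so did the L-arabinitol 4-dehydrogenase gene lad1 (49753; -1.33, adjusted p = 0.00136). The galactokinase gene gal1 (74122) and the epimerase gene gal10 (79955) had -0.46 and -0.44 in cellulose and 0.02 and 0.37 in sophorose, none past the fold threshold. In QM9414 gal7 was 3.00-fold lower in cellulose and 2.67-fold lower in sophorose than in glucose (adjusted p = 2.40e-06 and 5.69e-06), where the galactosidase genes 55999, 72632 and 80240 were higher.

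The genes beside the members were also read, 2 on each side in the order of the RefSeq table, a choice made after the values were seen. The table names no scaffold, so no position is given. Of the 23 that passed the filter, 6 were lower and 1 higher in Δxyr1 in cellulose, and 1 lower and 3 higher in sophorose. Of all genes tested, 10.3% were lower in cellulose and 6.47% in sophorose, and 705 and 915 of 8506 were higher. Among the 6 falls in cellulose, 112022 (log2 -1.5) and 69926 (-2.46) lay near 69944, 45112 (-1.62) near 55999 and 72643 (-1.35) near 56996. In sophorose 112022 (2.51) and 72643 (1.01) were higher, and 69926 (0.66) and 45112 (-0.72) were not called. Only 69957 was called lower in both, as its member was. The permease gene 69957, of the major facilitator superfamily and 1938 bases from 69944, fell from 76.6 ± 15.1 to 0.208 CPM in cellulose (log2 -8.73, SE 0.46, adjusted p = 1.77e-09) and from 5.90 ± 1.18 to 0.177 CPM in sophorose (-4.95, adjusted p = 2.07e-06), and had 0.0524 CPM in QM9414 glucose. The Zn2Cys6 regulator gene 55105, 514 bases from 55999, fell in cellulose (-1.33, SE 0.22, adjusted p = 0.00018) and had -0.26 in sophorose (adjusted p = 0.275), where 55999 fell by -3.76. The genes next to the mannanase gene, the Zn2Cys6 regulator gene 104380 and the acyltransferase gene 104382, had 0.35 and 0.46 in cellulose, neither called, and 0 of the 4 neighbours of 80240 and of 82235 were called in cellulose or sophorose by edgeR or DESeq2, with 1 to 3 of 4 at an unadjusted p under 0.05.

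**Figure D5:**
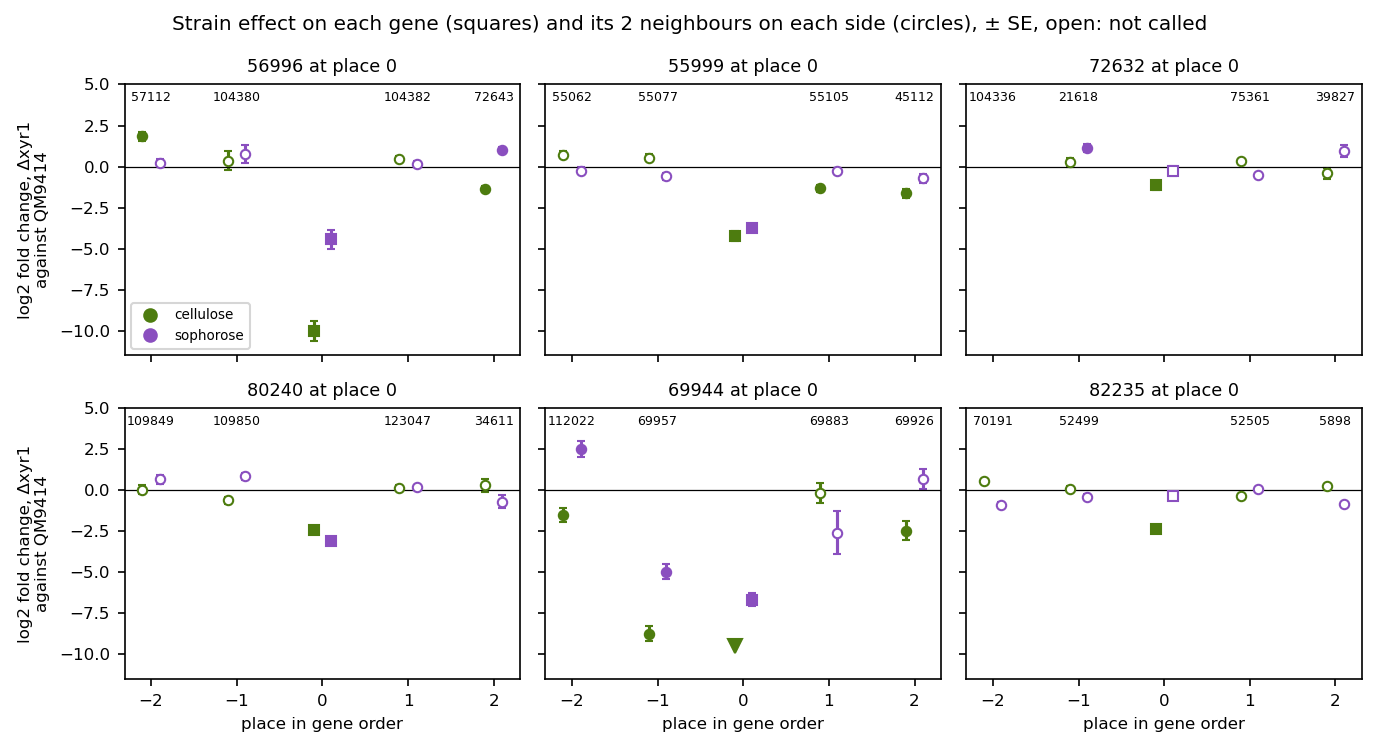
Fitted log2 fold change of Δxyr1 against QM9414 in cellulose (green) and sophorose (purple) for each of the 6 genes (place 0, squares, triangle for the bound) and the genes 1 and 2 places away in gene order (circles), with the SE as bars and open symbols not called. Only 69957, beside 69944, shows a fall of more than 8 on the log2 scale next to a member.

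The 3 genes whose pattern was most like that of each member were taken by the Pearson correlation of log2(CPM + 1) over the 17 libraries. The libraries form 6 groups, so r mainly describes group means, and the choice of scale matters: with 0.1 added in place of 1, 3 of 3 genes remained for 82235, 0 for 69944 and 1 for each of the others, and 0 remained for any member with Spearman's rho. The gene most like the mannanase gene was 69957 (r = 0.994), the permease gene beside 69944, followed by the GH62 α-L-arabinofuranosidase gene 76210 and the ferric reductase gene 106936 (both 0.991). For 69944 they were the xylanase genes 120229 (XYN3, 0.995) and 123818 (XYN2, 0.992) and the GH59 gene 111849 (0.993). For 55999 they were 80240 (0.989), xyr1 itself (0.981) and the secreted cysteine-rich protein gene 124295 (0.973), and for 80240 they were 55999 (0.989), 104295 of unknown function (0.977) and the Zn2Cys6 regulator gene 121121 (0.976). As xyr1 is deleted in Δxyr1, its r with a gene lower in that strain is set in part by the deletion. The gene most like 82235 was the regulator gene 55105 (0.995), which lies beside 55999, followed by another Zn2Cys6 regulator gene, 77513 (0.989), and the permease gene 47710 (0.986). For 72632 the values were lower, with the amino acid permease gene 62172 (0.907), xdh1 (81271; 0.886) and 108655, a secreted protein of unknown function (0.886).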

How the data were processed

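RNA-seq libraries of QM9414 and Δxyr1 were used as raw counts. The authors mapped paired reads to the Trichoderma reesei genome of JGI with TopHat2 2.0.4, keeping reads with a single alignment, and deposited raw counts per gene from HTSeq 0.6.0. The authors' deposited table of comparisons holds fold changes and p-values, which were not used, and the text descriptions of the genes, which were. Unique alignment can drop reads from near-identical genes, and whether strand was used in counting is not given in the sources used here.

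The tests ran in edgeR 4.0.16 under R 4.3.3, using TMM factors, a filter (10 counts or more in 2 libraries or more) and 1 quasi-likelihood fit over 17 libraries and 6 groups (common biological coefficient of variation 0.205). P-values were adjusted by Benjamini-Hochberg over 8506 genes. SE is the size of the log2 fold change over the root of the F statistic. Intervals are at the 95% level, from the fit or, where a group held at most 30 reads, from exact binomial counting of the summed reads, which with the floor of 3 counts covers counting error only. The replicates were described as biological. Levels per kilobase use the gene span in the RefSeq table, introns included, in place of the coding length first planned, and 9072 of 9129 genes matched that table. Motifs in promoters, also planned, were not analysed here.

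Named are the 6 members, the family genes called in the strain effect in cellulose or sophorose, galactose catabolism genes by symbol or description, xyr1, and the 3 genes most like each member; others were named after their values were seen. The members and lists were chosen with earlier results of these data known. Alternatives were DESeq2 1.42.0, RLE and upper-quartile factors, no factors, no filter, a filter of 1 CPM in 3 libraries, the compared groups alone, a replicate block, each library left out, and adjusted p alone. The fits were tested on simulated data.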

Additional observations from a re-analysis of the deposited data

Results flagged for a closer look

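A total of 11 tests of a difference between strain effects passed the threshold among the 6 genes, and all are given here as log2 differences. Between cellulose and sophorose, the strain effect was more negative in cellulose by -5.61 for 56996, -6.16 for 69944 and -2.02 for 82235. The value of 69944 depends on the prior count of the fit, since Δxyr1 had no reads in cellulose, and is no bound. Between cellulose and glucose, the effect was more negative in cellulose by -10.57 for 56996, -3.78 for 55999, -2.14 for 72632, -2.53 for 80240 and -2.02 for 82235. The first moved to between -12.56 and -9.95 when 1 of 4 Δxyr1 libraries with few reads was left out, and that of 72632 to -2.88 without QM9414 glucose replicate 3 and, no longer called, to -1.44 without scaling factors. Between sophorose and glucose, it was more negative in sophorose by -4.96 for 56996, -3.30 for 55999 and -3.19 for 80240.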

How the results depend on the processing

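Of 1692 log2 fold changes of the 6 genes under the alternatives, 1655 stayed on their side of the threshold, 27 lost a call, 10 gained one and 0 changed sign as called values. The number of the 6 genes called changed by over 1.5 times in these cases. In glucose between the strains it was 0 in most and 0 to 1 with a library left out. For cellulose against glucose in Δxyr1 it was 2, but 4 without scaling factors and 1 with only the groups compared, where 55999 did not pass the filter. For sophorose against glucose in Δxyr1 it was 4, and 2 to 5 with a library left out. For the sophorose and glucose strain effects it was 3, and 1 to 3 with a library left out. The cause was not tested. With a replicate block the counts were 6, 4 and 0 for the strain effects in cellulose, sophorose and glucose, and the call of 69944 for sophorose against cellulose in Δxyr1 was lost (2 of 6 in place of 3); correlations of same-numbered libraries were between -0.162 and 0.261, so the numbers were not taken to pair the samples. Over all genes, adjusted p alone raised the counts of 1584, 1465 and 221 genes in cellulose, sophorose and glucose to 3451, 3904 and 566. The glucose count was 1036 without factors, 0 with only the groups compared, and 43 to 451 with a library left out. Without factors, which moved the median of all genes by 0.196, -0.393 and -0.597, the higher share of these calls was 57.6, 22.3 and 5.89%, against 44.5, 62.5 and 72.4%. Depth limits 56996, 55999 and 69944 in glucose and in Δxyr1, where groups held 0 to 21 reads except for 55999 in sophorose.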
